A study of Saccharomyces cerevisiae with 4 samples.

Results

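The 8 YRF1 genes of baker's yeast, YRF1-1 to YRF1-8, were followed through 4 RNA-seq libraries that compare cells lacking the DEAD-box RNA helicase Dbp2 with wild-type cells. The members were taken by systematic name, and all 8 had a row among the 7126 features with a name in the deposited expression table. All 8 read higher in both dbp2null libraries than in both wild-type libraries, with log2 fold changes of 2.66 to 2.87, and none passed the test at an adjusted p of 0.05 with 2 libraries a group. The size of the difference rested on the second dbp2null library, in which the family stood 4.23 times above the first.

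YRF1 genes lie in the Y' element, a repeat found just inside the telomere at many, but not all, yeast chromosome ends. Their long open reading frame encodes a protein with helicase motifs, and the RNA is known to be scarce in wild-type cells and more abundant in cells that survive without telomerase, which can keep their ends by recombining Y' elements. The same ends are silenced by Sir proteins and give rise to the telomeric repeat-containing RNA TERRA, which can form R-loops with the DNA it came from. The study asked how Dbp2 relates to R-loops, to non-coding RNA and to Sen1, another helicase.

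Each genotype had 2 libraries, and the design text calls one of them a biological replicate. The dbp2null cells were strain BTY115, MATa dbp2::KanMx ura3Δ0 leu2Δ0 his3Δ0 TRP1 met- lysΔ. The wild-type cells were MATa his3Δ1 leu2Δ0 met15Δ0 ura3Δ0. Both were grown in YPD, a rich medium, at 30 °C to mid-log phase, and total RNA was depleted of ribosomal RNA and cleaned up so as to keep short RNAs. Since the strains also differ in nutritional markers, the loss of DBP2 and the rest of the genetic background cannot be told apart. The values are FPKM, fragments per kilobase of feature scaled to the mapped fragments of the library, as deposited.

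The labels were checked on 3 genes. DBP2 read 2.90 and 1.03 FPKM in the dbp2null libraries against 213 and 199 FPKM in wild type, so the deleted gene was low where it should be. MET17, also called MET15, read 31.5 and 22.5 FPKM in dbp2null against 0.237 and 0.422 FPKM in wild type, and LYS2 read 1.63 and 0.679 FPKM in dbp2null against 37.8 and 31.7 FPKM in wild type. Of the a-cell genes, the pheromone receptor gene STE2 read 155 to 286 FPKM in all 4 libraries. The median of the 7 a-cell genes listed was 286 FPKM in the first dbp2null library and 68.8 FPKM in the second. In wild type it was 218 and 222 FPKM. Their median log2 fold change was -0.91, with a range of -3.55 to 0.61. The genotypes did not overlap in 2 of 7 upward and 2 of 7 downward, beside 49.8% and 20.7% of all tested features. None of the 7 was called, beside 0.973% of all tested features called higher and 0.221% lower. Of the α-cell genes the pheromone gene MF(ALPHA)1 read 0.804 to 4.01 FPKM and the other 3 read 2.69 to 30.6 FPKM. In all 4 both dbp2null values were above both wild-type values, beside 49.8% of all tested features. Their median log2 fold change was 1.22, and none of the 4 was called. The second dbp2null library stood apart. Its FPKM summed to 3.37e+06, against 5.01e+07 in the first dbp2null library and 5.29e+07 and 3.22e+07 in wild type, and the dbp2null replicates correlated at r = 0.81 across 6781 features on the log2 scale, the wild-type replicates at r = 0.97. Genes are not independent replicates, and these correlations describe the libraries. The number of reads behind the values is unknown, so no counting interval is given.

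The copies were first placed on the genome, in the R64 assembly, whose chromosome sequences are those of sacCer3. YRF1-1 lay at chrIV:1526321-1531711, YRF1-2 at chrV:571480-576525 and YRF1-3 at chrVII:1084864-1090591, all on the plus strand. YRF1-4 and YRF1-5 stood in tandem on the plus strand of the right end of chromosome XII, at chrXII:1067087-1071235 and chrXII:1072508-1077898. YRF1-8 lay at chrXV:1085473-1090863 on the plus strand. YRF1-6, at chrXIV:371-6098, and YRF1-7, at chrXVI:280-6007, lay on the minus strand of left ends. All 8 read toward the nearest chromosome end. In 7 of them the stop codon was 222 to 428 bases from it, and YRF1-4, the inner copy of the tandem, was 6942 bases away. The annotation gave a Y' element at 17 of 32 telomeres.

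The coding sequences ran from 4149 bases in YRF1-4 to 5580 bases in YRF1-3, YRF1-6 and YRF1-7. Over the length of the shorter copy of a pair they were nearly the same. Identity over the 28 pairs, with the missing ends of the shorter copy not counted, was 99.04% to 100%. The 8 copies held 5 distinct sequences. YRF1-1, YRF1-5 and YRF1-8 were identical over 5391 bases, and so were YRF1-3 and YRF1-7. YRF1-6 differed from YRF1-3 only at A4821G and A4832T, positions counted from 1 at the start codon of YRF1-3. Over their own lengths, YRF1-2 carried 8 differences from YRF1-3 and YRF1-1 carried 34. The stretch from position 720 to 780 of the YRF1-3 coding sequence shows how little a short read has to go on. It is printed for 3 copies, in capitals where YRF1-2 or YRF1-1 differs from YRF1-3.
YRF1-3, chrVII:1085731-1085791, plus strand: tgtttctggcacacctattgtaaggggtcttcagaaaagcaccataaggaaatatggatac
YRF1-2, chrV:571665-571725, plus strand: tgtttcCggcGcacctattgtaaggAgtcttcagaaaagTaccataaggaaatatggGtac
YRF1-1, chrIV:1526848-1526908, plus strand: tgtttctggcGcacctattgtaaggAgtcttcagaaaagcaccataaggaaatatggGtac
Within these 61 bases YRF1-2 differed from YRF1-3 at T726C, A730G, G745A, C759T and A777G, and YRF1-1 at A730G, G745A and A777G. The window was chosen after the sequences were seen.

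The annotation also splits the family by its introns. YRF1-3, YRF1-6 and YRF1-7 have 2 coding exons around an intron of 148 bases, and the other 5 copies have 1 coding exon. The intron of YRF1-3 is shown with its first 6 bases, the TACTAAC branch sequence of yeast introns and its last 3 bases in capitals, and below it the matching stretch upstream of YRF1-1, with the substituted bases in capitals.
YRF1-3, intron, chrVII:1084883-1085030, plus strand: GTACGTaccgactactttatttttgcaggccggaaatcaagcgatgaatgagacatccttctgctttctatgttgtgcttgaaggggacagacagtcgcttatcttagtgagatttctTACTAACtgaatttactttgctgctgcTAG
YRF1-1, matching stretch, chrIV:1526005-1526142, plus strand: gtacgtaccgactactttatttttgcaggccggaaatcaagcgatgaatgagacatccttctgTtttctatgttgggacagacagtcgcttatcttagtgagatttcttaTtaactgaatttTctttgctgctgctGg
Counted from the first intron base, YRF1-1 carried C64T, C121T, A133T and A147G and lacked 10 bases. C121T turned TACTAAC into TATTAAC, and A147G turned the final TAG into TGG. YRF1-4, YRF1-5 and YRF1-8 had the same 138-base stretch. The stretch in YRF1-2 was 142 bases long with 16 differences, and it held neither form of the branch sequence but ended in TAG. Splicing itself was not measured, because the deposited table has 1 value per feature.

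The start region common to the 3 intron-bearing copies is printed because these copies ran together in every library, as described further on. It takes 250 bases before the YRF1-3 start and 50 from it, with the start codon in capitals.
YRF1-3, chrVII:1084614-1084913, plus strand: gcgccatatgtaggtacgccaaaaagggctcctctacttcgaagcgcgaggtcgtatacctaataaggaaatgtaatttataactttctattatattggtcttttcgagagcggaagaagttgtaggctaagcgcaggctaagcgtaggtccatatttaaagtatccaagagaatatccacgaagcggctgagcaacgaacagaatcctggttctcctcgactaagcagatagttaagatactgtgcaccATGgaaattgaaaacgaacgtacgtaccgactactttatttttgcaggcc
The same window was identical in YRF1-6 and YRF1-7 and differed at 155 to 164 bases in the other 5, whose annotated start codons lie elsewhere in the element. TATAAA, searched on both strands, was in 6 of the 8 YRF1 windows, YRF1-3 among them, and in 45.4% of the 6026 windows of the annotation. TTACCCG, the core of the Reb1 recognition sequence, was in 0 of the 8 and in 7.05% of all. These are matches of letters only.

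To see which reads could tell a copy apart, every run of 50 bases in each gene was looked up in the whole genome on both strands. Not one of the runs in YRF1-1, YRF1-3, YRF1-5, YRF1-6, YRF1-7 or YRF1-8 was found in a single place. In YRF1-2 100 of 4997 runs, or 2.001%, were found once, and in YRF1-4 50 of 4100, or 1.22%. A typical run occurred in 14 places, in YRF1-4 in 15, and at most in 31. Between 85.2% and 95.1% of the runs were also found outside the 8 YRF1 genes. The values of single copies are therefore shares of a pooled signal, divided in a way that the sources used here do not give.

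**Figure D1:**
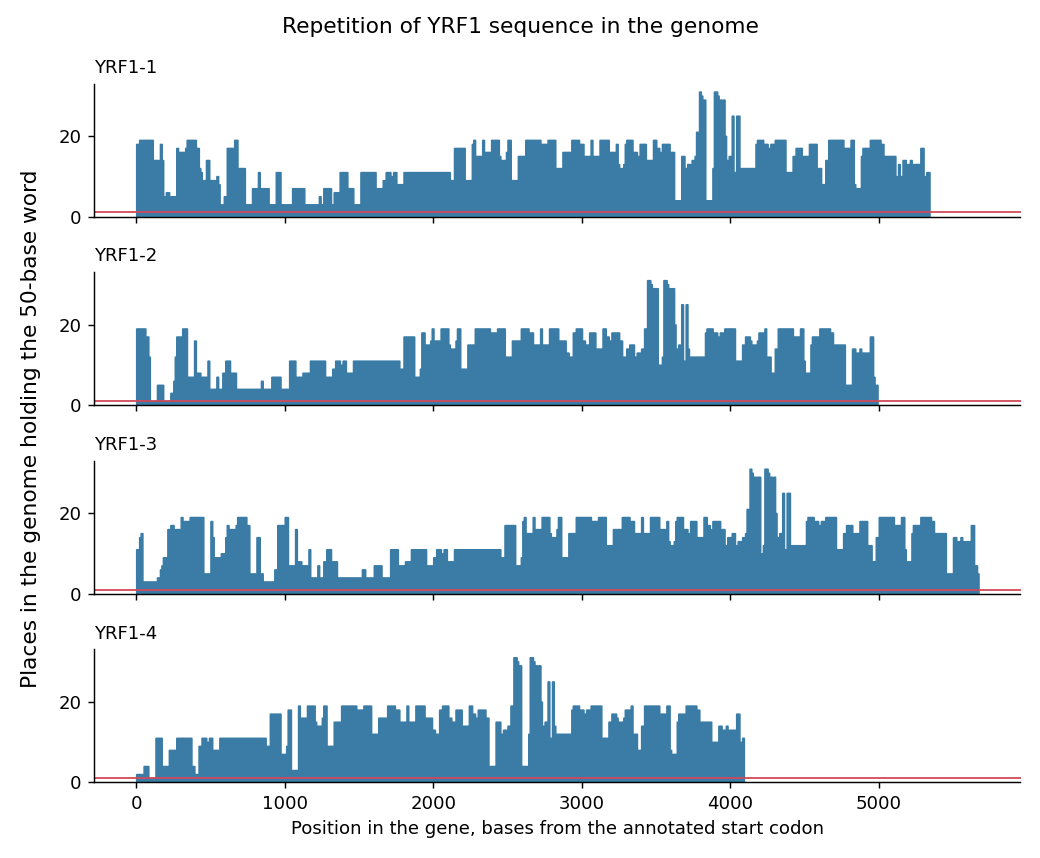
Number of places in the genome that hold each 50-base run (vertical axis) against its position in the gene in bases from the start codon (horizontal axis), for YRF1-1, YRF1-2, YRF1-3 and YRF1-4. The red line marks 1 place. The filled profile reaches the line only in short stretches of YRF1-2 and YRF1-4, and its peaks reach 31 places.

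With that limit, YRF1-1 (YDR545W) read 40.6 and 194 FPKM in the dbp2null libraries against 14.4 and 8.85 FPKM in wild type. YRF1-5 (YLR467W), identical in sequence, read 40.8 and 194 FPKM in dbp2null against 14.3 and 8.94 FPKM in wild type. YRF1-8 (YOR396W), the last copy with this sequence, read 40.8 and 194 FPKM in dbp2null against 14.8 and 9.30 FPKM in wild type. In all 3 the second dbp2null library was by far the highest and the first also stood above both wild-type libraries. The log2 fold changes on the log2(FPKM + 1) scale were 2.87 (SE 0.78) for YRF1-1, 2.87 (SE 0.78) for YRF1-5 and 2.82 (SE 0.78) for YRF1-8. The limma adjusted p-values, from 0.0771 to 0.0791 in these 3 copies, missed the threshold.

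Among the intron-bearing copies, YRF1-3 (YGR296W) read 37.6 and 140.1 FPKM in dbp2null against 13.0 and 8.67 FPKM in wild type. YRF1-7 (YPL283C), with the same coding sequence, read 37.0 and 145 FPKM in dbp2null against 12.7 and 8.67 FPKM in wild type. YRF1-6 (YNL339C) read 36.9 and 144 FPKM in dbp2null against 13.1 and 8.58 FPKM in wild type. The order of the libraries was the same as in the first class, and the groups did not overlap. Their log2 fold changes were 2.66 (SE 0.66), 2.69 (SE 0.68) and 2.67 (SE 0.68) in that order, with limma adjusted p-values of 0.0695 to 0.0714.

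The remaining copies are those with some sequence of their own. YRF1-2 (YER190W) read 39.2 and 156 FPKM in dbp2null against 13.4 and 9.06 FPKM in wild type, a log2 fold change of 2.72 (SE 0.69) with a limma adjusted p of 0.0710. YRF1-4 (YLR466W), the inner tandem copy, read 47.4 and 185 FPKM in dbp2null against 16.0 and 10.2 FPKM in wild type, a log2 fold change of 2.78 (SE 0.69) with a limma adjusted p of 0.0695. Both again had their highest value in the second dbp2null library and no overlap between genotypes. YRF1-4 was the highest of the 8 in 3 libraries, and YRF1-1 was the highest in the second dbp2null library.

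**Figure D2:**
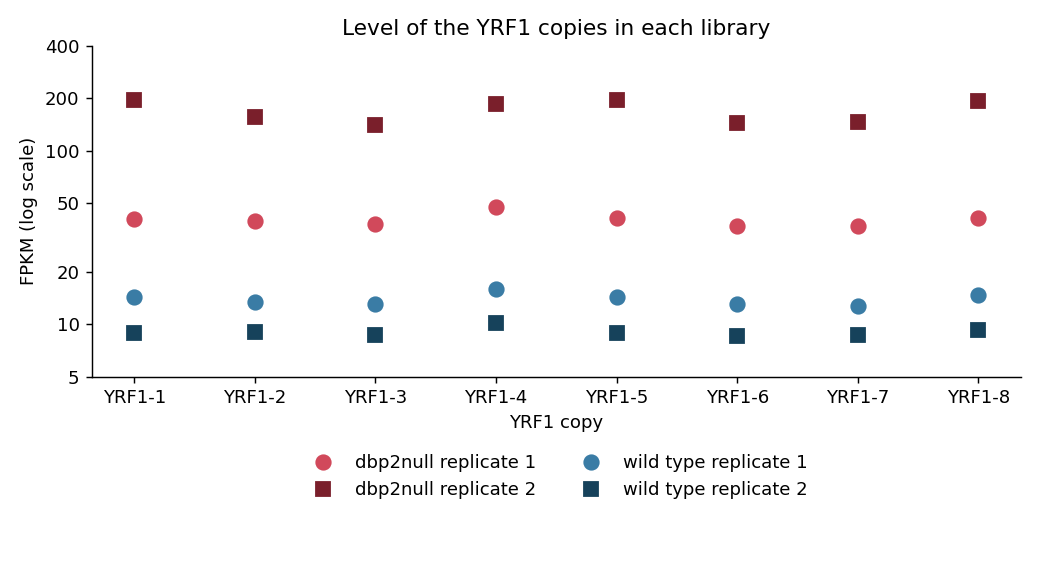
FPKM on a log axis for each of the 8 YRF1 copies, with 1 point per library: circles for replicate 1, squares for replicate 2, red for dbp2null and blue for wild type. Within each library the copies lie close together, the lowest dbp2null value is 36.9 FPKM and the highest wild-type value is 16.0 FPKM.

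So 0 of 8 copies passed at an adjusted p of 0.05, where 0.973% of the 6781 tested features were called higher in dbp2null and 0.221% lower. All 8 had an unadjusted limma p under 0.05, between 0.0117 and 0.0171, as did 32.5% of all tested features in the same direction. This held for 0 of 8 after quantile normalization, for 4 without the first wild-type library and for 0 without the second. At an adjusted p of 0.1 all 8 would be called higher, beside 27.3% of all features. No other tool was run. In all 8 the genotypes did not overlap, which held in this direction for 49.8% of tested features, and in the opposite direction for 20.7%. An exact permutation test of 2 libraries against 2 cannot give a p below 0.333 for a single gene. The copies are also not 8 separate observations, since they share their sequence.

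The lowest YRF1 value in dbp2null, 36.9 FPKM in YRF1-6, was 2.30 times the highest in wild type, 16.0 FPKM in YRF1-4. Among tested features the log2 fold changes of the copies stood at the 97.5 to 98.2 percentile, while the median feature was at 0.28. By level, the copies moved from the lower part of the distribution to its upper part. They stood at the 15.1 to 18.6 percentile of tested features in the second wild-type library and the 19.3 to 25.9 percentile in the first. In the first dbp2null library they were near the middle, at the 46.4 to 56.7 percentile, and in the second at the 88.7 to 91.9 percentile.

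Over the family, weighting each copy by its coding length, the level was 39.8 and 168 FPKM in dbp2null against 13.9 and 8.995 FPKM in wild type. The group means were 104 ± 90.9 FPKM (SD, n = 2) in dbp2null and 11.4 ± 3.46 FPKM (SD, n = 2) in wild type, a ratio of 9.09. The spread in dbp2null was nearly as large as its mean. The dbp2null libraries differed 4.23-fold, more than the 2.86-fold step from the first wild-type library to the first dbp2null library, and the wild-type libraries differed 1.54-fold. Fitted without the second dbp2null library, the log2 fold changes of the copies were 1.71 to 1.81, and without the first they were 3.60 to 3.99. The direction was the same in both, which the lack of overlap between genotypes had fixed in advance. In these fits the lone dbp2null library is assumed to vary like the wild-type pair. Limma called 0 of 8 without the second library, with 1.33% of features called in either direction. It called 8 of 8 without the first, with 37.0% called.

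The copies also differed among themselves in an orderly way. In every library each of YRF1-1, YRF1-5 and YRF1-8 read above each of YRF1-3, YRF1-6 and YRF1-7. The mean of the first class was 40.7 FPKM against 37.2 FPKM in the first dbp2null library and 194.1 FPKM against 143 FPKM in the second. In wild type it was 14.5 FPKM against 12.9 FPKM in the first library and 9.03 FPKM against 8.64 FPKM in the second. The ratio of the class means was 1.36 in the second dbp2null library and between 1.04 and 1.12 in the other 3. In the second wild-type library the classes differed by no more than identical copies did. The highest of YRF1-1, YRF1-5 and YRF1-8 was at most 1.05 times the lowest in any library, and YRF1-3 and YRF1-7 differed by at most 1.04-fold. Across all 8 the highest was 1.19 to 1.39 times the lowest within a library, less than the 1.46-fold to 1.62-fold by which a copy differed between the wild-type libraries. The order of the copies was the same across libraries only in part, and differences between neighbours in it lie within that spread.

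Other Y' frames were read next. Apart from YRF1, 13 open reading frames annotated without a gene name are listed as Y' helicase-like. Their medians were 40.1 and 121 FPKM in dbp2null against 13.5 and 8.18 FPKM in wild type. In all 13 the groups did not overlap, beside 49.8% of all tested features in this direction, and the log2 fold changes were 2.45 to 2.79 with a median of 2.66. Limma called 0 of 13, with adjusted p-values of 0.0573 to 0.0695 and an unadjusted p under 0.05 in all 13, beside 32.5% of all features. They share the sequence of YRF1, so they are no independent observation. A few hold more sequence of their own. YBL113C, where 18.5% of 50-base runs are found once, read 47.5 and 118 FPKM in dbp2null against 13.1 and 7.66 FPKM in wild type. YHL050C, with 20.01% of such runs, read 47.2 and 142 FPKM in dbp2null against 14.6 and 10.2 FPKM in wild type. YEL077C, with 16.2%, read 36.6 and 118 FPKM in dbp2null against 12.7 and 8.18 FPKM in wild type. Their log2 fold changes were 2.78, 2.65 and 2.58 in that order. By shared 50-base runs, 28 annotated genes outside YRF1 share at least 20% of their runs with it, and 4 of them, YER189W, YER190C-B, YLR462W and YLR464W, are listed at 0 in all 4 libraries. Of the 24 that were tested, which include the 13 above, 23 did not overlap in the upward direction, beside 49.8% of all tested features. The exception was YBL112C, listed at 0 and 217 FPKM in dbp2null and at 47.2 FPKM and 0 in wild type. YER189W overlaps YRF1-2 and YLR464W overlaps YRF1-4 on the same strand, and YER190C-B lies antisense within YRF1-2. Whether strand was used in the authors' counting is not given in the sources used here, so reads from the antisense partner cannot be told apart.

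Most genes near the chromosome ends also read higher in dbp2null. Outside the Y' family, 296 tested genes had annotations within 25 kb of a chromosome end. Of these, 249 did not overlap in the upward direction, where 49.8% of all tested features did, and 19 in the downward direction, where 20.7% did. Limma called 5 of the 296 higher and 0 lower, beside 0.973% and 0.221% of all tested features. The median log2 fold change was 1.70, with 257 of 296 above 0 and the lowest at -2.28. Of all 6781 tested features 4225 were above 0, with a median of 0.28. Of the 296, 43 had a log2 fold change above the lowest YRF1 copy, as had 168 of all 6781 tested features. The step between the dbp2null libraries was smaller here, from a median of 29.5 FPKM in the first to 48.0 FPKM in the second, beside 13.4 and 10.04 FPKM in wild type. The YRF1 level divided by this median was 1.04 and 0.896 in the wild-type libraries, 1.35 in the first dbp2null library and 3.504 in the second.

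The nearest tested gene inward of each copy, outside the Y' family, varied widely. COS1, a member of the subtelomeric COS family and the neighbour of YRF1-6, read 49.1 and 56.9 FPKM in dbp2null against 15.3 and 15.4 FPKM in wild type. It rose with a log2 fold change of 1.72 (SE 0.17, limma adjusted p = 0.0458). COS6, next to YRF1-3, read 87.3 and 80.6 FPKM in dbp2null against 41.1 and 44.8 FPKM in wild type. Of these COS1 alone passed the test, and both COS genes had dbp2null replicates close to each other, unlike YRF1. PAU4, of the seripauperin family and inward of the YRF1-4 and YRF1-5 tandem, had a log2 fold change of 0.72, PAU10 near YRF1-1 of 1.15 and PAU22 near YRF1-7 of 1.53, and none of the 3 passed. The unnamed frame YER188C-A near YRF1-2 read 60.1 and 87.1 FPKM in dbp2null against 13.6 and 1.86 FPKM in wild type. YOR394C-A near YRF1-8 read 248 and 137 FPKM in dbp2null against 24.2 and 11.1 FPKM in wild type. Their log2 fold changes, 3.505 and 3.40, were above those of YRF1, without passing the test. COS and PAU genes have close relatives elsewhere in the genome, so their values are uncertain in the same way.

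Genes that mitotic haploid cells keep silent read higher as well. All 22 on a list of meiotic and sporulation genes did not overlap between genotypes, beside 49.8% of all features in this direction, and the median log2 fold change was 1.64. Limma called 0 of them, and 20 had an unadjusted p under 0.05, beside 32.5% of all features. None of the 22 had a log2 fold change above the lowest YRF1 copy, beside 168 of all 6781 tested features. At so small a share, 0 of 22 says little about this list. DMC1, the meiotic recombinase, read 16.7 and 32.2 FPKM in dbp2null against 5.61 and 4.25 FPKM in wild type. MEI5 and SAE3, which act with Dmc1, had the highest log2 fold changes of the list, 2.56 and 2.49. The YRF1 level divided by the list median was 2.98 and 2.31 in wild type, 3.51 in the first dbp2null library and 9.75 in the second. The bearing of these higher values among scarce RNAs on the YRF1 values was not tested.

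The lists were also compared with only 1 dbp2null library in the fit. With the first alone, the median log2 fold change was 1.73 for YRF1, 1.37 for genes near the ends, 1.41 for the silent list and 0.37 for all features. With the second alone the medians were 3.73, 1.91, 1.97 and 0.23 in that order. After quantile normalization, which gives all libraries the same distribution of values, they were 2.99, 1.07, 0.29 and -0.02. YRF1 had the highest of these 4 medians each time, by the narrowest margin in the first library. The 13 other Y' helicase-like frames had medians of 1.82, 3.46 and 2.58 in the same 3 fits, above YRF1 with the first library alone and below it in the other 2. Whether the differences between these lists are larger than chance was not tested.

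**Figure D3:**
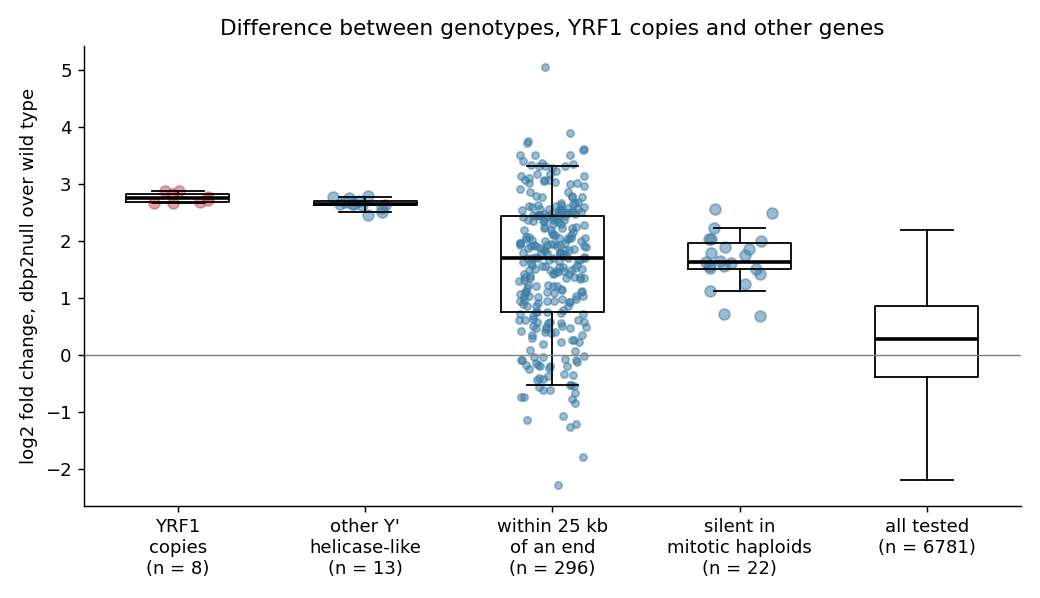
Log2 fold change of dbp2null over wild type, on the log2(FPKM + 1) scale, for each YRF1 copy, other Y' helicase-like frames, tested genes within 25 kb of an end, genes silent in mitotic haploids and all tested features. Points are genes, boxes show the quartiles and median, whiskers the 5 to 95 percentile range, and all tested features have a box only. The 8 YRF1 copies lie between 2.66 and 2.87, above the medians of 1.70 near the ends, 1.64 for the silent list and 0.28 for all.

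**Figure D4:**
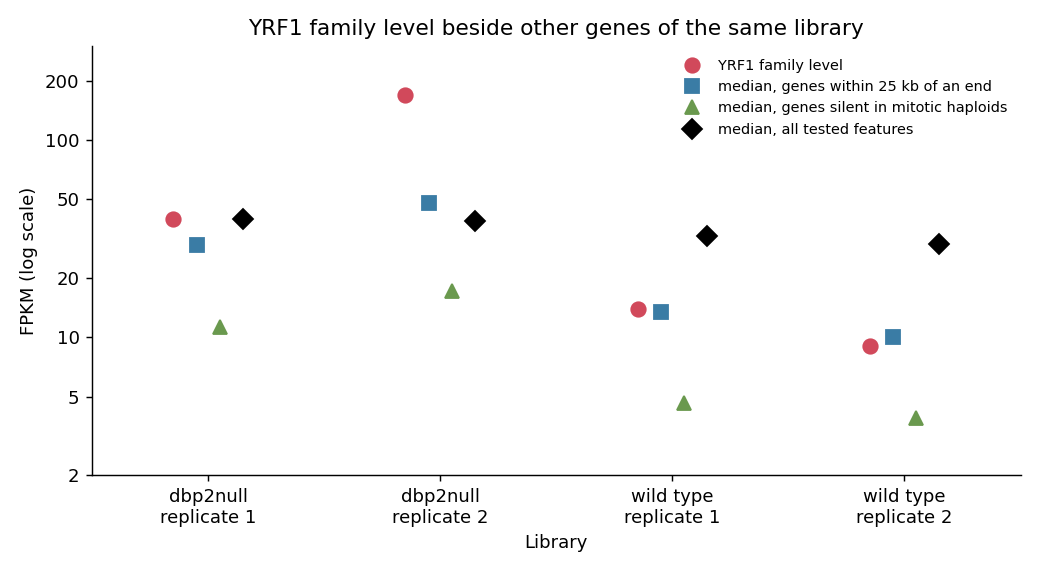
YRF1 family level per library in FPKM on a log axis (circles), beside the library median of genes within 25 kb of an end (squares), of genes silent in mitotic haploids (triangles) and of all tested features (diamonds), offset sideways for legibility. The YRF1 level is 13.9 and 8.995 FPKM in wild type, close to the squares, and 168 FPKM in the second dbp2null library, where the squares stand at 48.0 FPKM.

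Factors that act on chromosome ends were then read from lists. Of 15 genes of telomere end protection and telomerase, TLC1, the RNA template of telomerase, was the only one called. It read 27.6 and 32.0 FPKM in dbp2null against 128 and 135 FPKM in wild type. It was low in both dbp2null libraries alike, and it fell by 2.11 on the log2 scale (SE 0.22, limma adjusted p = 0.0465). Limma called 0.221% of all tested features lower. The log2 fold change of TLC1 stood at the 5.29 percentile of tested features, so larger falls were seen outside this list. Many tRNA genes and some snoRNA genes had such larger falls, while others fell less or rose. The list as a whole had 12 genes without overlap in the upward direction and 1 downward, beside 49.8% and 20.7% of all features, with a median log2 fold change of 1.03 against 0.28 for all features.

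Among 10 genes of subtelomeric silencing none was called, and the median was 0.41. SIR1, which helps to establish silencing at the mating-type loci, read 28.4 and 44.1 FPKM in dbp2null against 10.3 and 8.86 FPKM in wild type, a log2 fold change of 1.78 with a limma adjusted p of 0.0559. SIR1 is also one of the genes within 25 kb of a chromosome end counted above, whose median log2 fold change was 1.70. SIR4, a structural protein of silent chromatin, read 19.3 and 28.0 FPKM in dbp2null against 13.5 and 8.84 FPKM in wild type. ESC1, which anchors silent chromatin at the nuclear edge, had a log2 fold change of 1.30. Among 16 genes of homologous recombination none was called, 14 did not overlap in the upward direction, beside 49.8% of all features, and the median was 0.82. The log2 fold change was 1.21 in the topoisomerase gene TOP3 and 1.20 in SAE2, which promotes resection of DNA ends.

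The 12 genes of TERRA turnover and R-loop control had a median of 0.22, near that of all features, and none was called. MFT1 and HPR1 encode subunits of the THO complex, which packages nascent RNA, and had log2 fold changes of 1.29 and 0.57. RNH203, a subunit of RNase H2, read 202 and 76.4 FPKM in dbp2null against 179 and 206 FPKM in wild type, with overlapping groups. By unadjusted limma p under 0.05, 4 of the silencing genes and 12 of the recombination genes read higher and none lower, and 1 of the TERRA and R-loop genes read higher and 1 lower. The share of all features that read higher by this rule was 32.5%, so the 4 of 10 silencing genes lie near it. TERRA itself has no row that could be matched.

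Over the 4 libraries the genes with the pattern most like YRF1 were sought among 5323 named genes outside the Y' family. Likeness was the Euclidean distance between log2(FPKM + 1) values centred on each gene's own mean, and the median gene lay 2.92 away. TDA6 was nearest at 0.212. It read 25.1 and 116 FPKM in dbp2null against 9.71 and 6.84 FPKM in wild type. DAN4, a cell wall mannoprotein gene, followed at 0.361 with 15.9 and 54.2 FPKM in dbp2null against 5.38 and 2.31 FPKM in wild type. MAN2, a mannitol dehydrogenase gene, lay at 0.376 with 14.7 and 44.8 FPKM in dbp2null against 3.95 and 2.54 FPKM in wild type. All 3 shared with YRF1 the highest value in the second dbp2null library and the lowest in the second wild-type library. They were chosen by likeness over these same libraries, so the shared order follows from the choice. MAN2 is also one of the genes within 25 kb of a chromosome end counted above.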

How the data were processed

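FPKM values per feature were deposited by the authors in 1 table of 4 libraries. The submitters' processing notes name sacCer3, CASAVA, TopHat, Cufflinks and edgeR. Not given in the sources used here were their versions, the strand setting and the handling of reads with several matches. Whole reads could not be recovered from the FPKM, so depth is unknown. From these values, 3 rows without a name were left out, and limma 3.58.1 with a trend (R 4.3.3) was fitted to log2(FPKM + 1) of the 6781 features averaging 1 FPKM or more, two-sided, with Benjamini-Hochberg adjustment over all of them. The fit was tested on simulated data with the same spread in both genotypes, smaller than in these libraries. That test cannot show how the fit behaves at the unequal spread of these libraries.

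The YRF1 copies and all lists were chosen with earlier results of these data known. Named genes were all YRF1 and Y' helicase-like frames, called members of each list or otherwise the 3 largest changes at a mean of at least 10 FPKM, the inward neighbours, and the 3 nearest patterns. A gene of the recombination list that this rule names is not reported here. Sequences and coordinates are from RefSeq R64, read with Python 3.11.15 and edlib 1.3.9.post1; 6169 features matched it. Since no protein table was used, Y' relatives were set by at least 20% shared 50-base runs, in place of the planned shared protein words. Sequence windows and motifs were chosen after the sequences were seen. Replicate numbers were not used to pair the libraries in the fit reported. The study's binding data were not analysed here.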

Additional observations from a re-analysis of the deposited data

How the results depend on the processing

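The log2 fold changes of all 8 YRF1 copies were positive under all 17 alternatives run, and 0 of 8 were called under 13 of them. A change of filter, threshold, trend or block leaves the log2 fold change of a row as it is, so its sign was fixed there. Leaving out 1 library could not reverse it either, since the genotypes did not overlap in any copy. All 8 were called (limma adjusted p of 0.0352 to 0.0413) when only features above 0 in every library were tested. That rule calls 1198 of 6545 features, or 18.3%. All 8 were also called at an adjusted p of 0.1, which calls 2102 features, or 31%. In both cases the log2 fold changes stay at 2.87, 2.72, 2.66, 2.78, 2.87, 2.67, 2.69 and 2.82 from YRF1-1 to YRF1-8. Without 1 library each, they ran from 1.75 to 3.99 in YRF1-1, 1.74 to 3.71 in YRF1-2, 1.73 to 3.60 in YRF1-3, 1.81 to 3.75 in YRF1-4, 1.76 to 3.99 in YRF1-5, 1.71 to 3.64 in YRF1-6, 1.72 to 3.67 in YRF1-7 and 1.71 to 3.93 in YRF1-8; the members called ran from 0 to 8, all 8 without the first dbp2null library, and the features called from 0 without the first wild-type library to 2512 without the first dbp2null library. Against 81 features in the fit reported, 8 were called with a pseudocount of 0.1, 425 with 5, 13 at a mean of at least 10 FPKM, 13 with median centring, 5 with quantile normalization and 41 without a trend. The cause of these moves was not tested. With no filter, 83 were called; this was set to features above 0 in at least 1 library after a first run that kept the 340 features at 0 throughout. The log2 ratio of the family level, 3.19, was 4.67 after rescaling to protein-coding genes, where the median of all features moves from 0.28 to 1.08, and 1.80 to 3.88 leaving out 1 library each, lowest without the second dbp2null library. Median centring moved the median feature to -0.06 and gave members 2.33 to 2.54. With the library median of the silent list subtracted, chosen after seeing the data, the ratio was 3.65; subtracting that of genes near the ends gave no value, since the wild-type mean fell below 0.

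Whether same-numbered libraries were handled together is not given in the labels. Deviations of same-numbered libraries correlated at -0.11 over 6781 features. This gives no sign of pairing but cannot settle it. The log2 difference between replicates had an SD of 1.56 in dbp2null and 0.71 in wild type. With the replicate block 16 features, or 0.236% of those tested, and 0 members were called. With the numbers crossed, a block chosen after seeing the data, 2667 features, or 39.3%, and 8 members were called.

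Depth is unknown, and with 2 libraries a group no single-gene permutation test can pass. Whatever the setting, the values used here do not measure single copies apart from the family.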
